A study of Mus musculus with 21 samples.

Results

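The genes of mitochondrial ribosomal proteins were taken as all genes of the deposited table whose symbol begins with Mrpl or Mrps followed by a digit, with pseudogenes left out. They numbered 76 of the 13202 genes of the table, 47 with an Mrpl symbol and 29 with an Mrps symbol. No measured value entered this choice, and all 76 passed the filter on low values (at least 3 libraries with an RPKM of 1 or more), as 12630 genes of the table did. The symbols name large subunit (Mrpl) and small subunit (Mrps) proteins, except that the products of Mrps18a and Mrps30 sit in the large subunit and that Mrps36 encodes a subunit of the 2-oxoglutarate dehydrogenase complex. The 3 genes were kept because the choice went by symbol. Mrpl23 was not analysed here.

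Mitochondrial ribosomes translate the few proteins encoded by mitochondrial DNA, which are core subunits of the respiratory chain and of ATP synthase. All of their proteins are encoded in the nucleus, made on cytosolic ribosomes and imported, while their ribosomal RNA comes from mitochondrial DNA. Part of the proteins descend from those of bacterial ribosomes and part are specific to mitochondria. T cells expand their mitochondria and mitochondrial translation when they are activated.

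Poly(A) RNA was sequenced from mouse CD8 T cell cultures in 21 libraries, 3 for each of 7 groups in 3 experiments. T cells from spleen and inguinal lymph nodes were negatively selected, stimulated for 48 h with IL-2 present, and harvested on day 8. The polyclonal chronic group held C57BL/6 cells activated with plate-bound anti-CD3 and anti-CD28 and then exposed to plate-bound anti-CD3 again every 48 h, and the polyclonal acute group held such cells with no further anti-CD3. The OT-I chronic group held cells of OT-I mice, whose transgenic T cell receptor recognises the ovalbumin peptide SIINFEKL, which were activated with the peptide and then co-cultured with B16-F10 melanoma cells pretreated with IFN-γ, with fresh peptide every 48 h. The OT-I acute group was co-cultured with the same melanoma cells without fresh peptide. The remaining experiment used C57BL/6 cells and anti-CD3 as in the polyclonal experiment: NAC chronic cells received 10 mM N-acetylcysteine (NAC), a thiol antioxidant, from 48 h onwards, vehicle chronic cells received vehicle with repeated anti-CD3, and vehicle acute cells received vehicle with no further anti-CD3. No group combined NAC with acute stimulation in the files used here. The sources used here give no age, sex or number of the mice, and do not say whether the 3 libraries of a group came from separate cultures or animals. The p-values therefore reflect the spread among these libraries alone, and that spread may be technical.

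Values are RPKM, reads scaled to gene length and to the reads of the library, so levels of different genes can be set side by side. A change is a difference of group means on the log2(RPKM + 1) scale, given with its standard error (SE). The SE and p use 1 spread per gene estimated over all 21 libraries, and do not measure the spread of the compared groups alone. That spread differed between groups: the median SD of the 76 genes was 11.9% of the mean in OT-I acute and 4.08% in vehicle acute libraries. A gene was said to rise or fall where limma's adjusted p, over all 12630 genes tested, was under 0.05. Values of polyclonal acute replicate 2, polyclonal chronic replicate 2 and OT-I acute replicate 3 stood apart from the others of their groups. Their genes of low level were raised on average by 0.648, 0.442 and 0.394 on the log2 scale, where 0.1 was the threshold. Each had the fewest reads in genes of its group (5347355, 7738101 and 13121180). Without these 3 libraries 31 of the 76 genes rose and 9 fell in polyclonal chronic cells, beside 31.7% and 38.1% of all genes. In OT-I chronic cells 13 then rose and 30 fell, beside 26.5% and 40.4% of all genes, and in vehicle chronic cells 4 rose and 51 fell, beside 29.0% and 38.9%. Counts with all libraries are given in each comparison. OT-I chronic replicate 3 was not among the libraries left out there, though it also stood apart. Its RPKM correlated with OT-I chronic replicates 1 and 2 at r of 0.911 and 0.906, where replicates 1 and 2 correlated at 0.9995. Depth was 5347355 to 25218890 reads in genes per library, and the fewest reads of any of the 76 genes in a library were 17, for Mrps36. In bulk RNA, fewer cells of a type and less RNA per cell cannot be told apart.

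Several libraries went against the label of CD8 T cells or held other cells. In polyclonal chronic libraries the CD8 coreceptor gene Cd8a had 8.30 to 8.63 RPKM and Cd4 had 302.9 to 317 RPKM, against 100.6 to 101.6 RPKM of Cd8a and 64.1 to 69.7 RPKM of Cd4 in polyclonal acute libraries. The libraries labelled polyclonal chronic therefore had mostly the coreceptor RNA of CD4 T cells. The melanocyte pigment gene Tyrp1 had 1237 to 1251 RPKM in OT-I chronic and 2202 to 2382 RPKM in OT-I acute libraries, and was listed at 0 in all 9 libraries of the vehicle and NAC experiment. Cd4 had 46.7 to 48.9 RPKM in NAC chronic, 2.16 to 2.63 RPKM in vehicle chronic and 12.98 to 14.7 RPKM in vehicle acute libraries, beside Cd8a of 136.9 to 141 RPKM in NAC chronic, 143.6 to 146 RPKM in vehicle chronic and 85.2 to 88.7 RPKM in vehicle acute libraries. All 3 libraries of a group shared these features, so no result could be given without them.

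Messenger RNA of the mitochondrial ribosome was abundant in every group. The median of the 76 genes lay between 25.7 RPKM in polyclonal acute and 36.6 RPKM in vehicle acute and OT-I chronic cells, where the median of all genes tested was 10.4 to 13.04 RPKM over the 7 groups. Over all 21 libraries the 4 highest were Mrpl33 (mean 141 RPKM), Mrpl52 (123.4 RPKM), Mrpl30 (118 RPKM) and Mrps21 (104 RPKM). Their order changed with the group: Mrpl33 led in 5 groups, while Mrpl52 led in vehicle chronic cells (162.7 ± 3.44 RPKM, SD, n = 3) and Mrps21 in NAC chronic cells (129.9 ± 4.79 RPKM). The 4 lowest were Mrps36 (4.91 RPKM), Mrps33 (5.01 RPKM), Mrps25 (5.46 RPKM) and Mrpl17 (6.98 RPKM). The 3 lowest lay within 1 RPKM of each other and did not keep their order between groups. Levels of single genes thus spanned a wide range within each group.

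**Figure D1:**
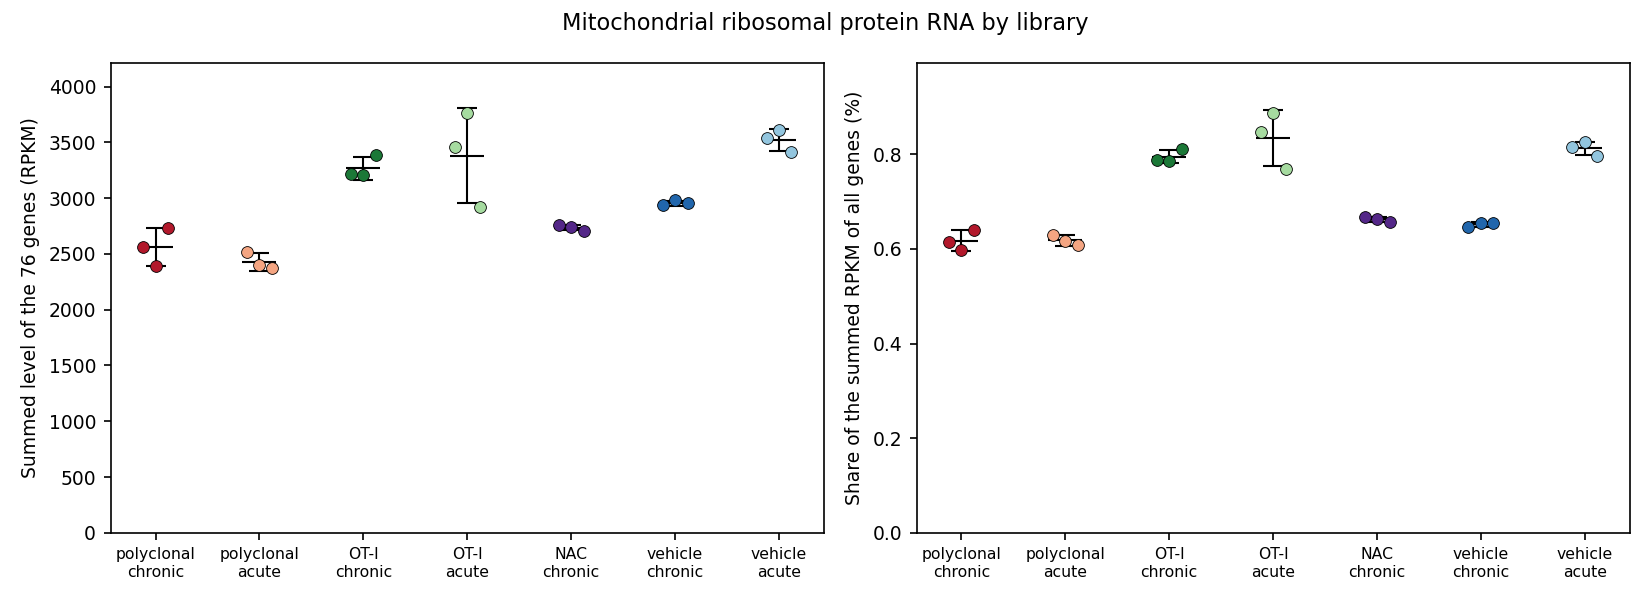
Summed RPKM of the 76 mitochondrial ribosomal protein genes in each library (left axis, RPKM) and their share of the RPKM of all genes (right axis, %), by group. Points are libraries and bars are mean ± SD of 3 libraries; the vehicle acute libraries (3413 to 3612 RPKM) lie above the vehicle chronic (2935 to 2980 RPKM) and NAC chronic libraries (2710 to 2756 RPKM).

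The summed level of the 76 genes separated the groups of the vehicle and NAC experiment and not those of the others. It was 2394, 2567 and 2736 RPKM in the polyclonal chronic libraries, against 2372, 2400 and 2522 RPKM in the polyclonal acute ones. In OT-I chronic libraries it was 3204, 3217 and 3388 RPKM, against 2922, 3459 and 3761 RPKM in OT-I acute ones. The libraries of chronic and acute cells overlapped in both experiments. NAC chronic libraries had 2710 to 2756 RPKM, vehicle chronic ones 2935 to 2980 RPKM and vehicle acute ones 3413 to 3612 RPKM, with no overlap between these groups. The mean sum differed by -16.0% between vehicle chronic and vehicle acute cells and by -7.42% between NAC chronic and vehicle chronic cells. Summed RPKM over all genes differed too, and as a share of it the 76 genes had 0.658 to 0.668% in NAC chronic, 0.646 to 0.656% in vehicle chronic and 0.797 to 0.826% in vehicle acute libraries. The share thus was higher, by 1.64%, in NAC chronic than in vehicle chronic cells, so the sum and the share differ in sign there.

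Promoters of the genes were described from the RefSeq promoter table (build GRCm38.p6; 250 bases before to 50 after each gene's start), which held 67 of the 76 genes. Motifs were searched as letters on both strands. GCGCNTGC, a core of the sites of NRF1, a regulator of nuclear genes for mitochondrial proteins, was in 22 of the 67 promoters (32.8%), in 21.1% of the promoters of genes tested and in 10.8% of all promoters in the table. Its stricter form GCGCATGC, which it includes, was in 8 of them (11.9%, against 6.01% of tested and 3.05% of all promoters). CCGGAAG, a core of the sites of ETS factors such as GABP, was in 25 (37.3%, against 20.04% and 9.93%), and GCCATNTTG, a core of YY1 sites, in 11 (16.4%, against 4.93% and 2.90%). CACGTG, the E-box that MYC can bind, was in 5 (7.46%, against 11.7% and 8.09%). At least 1 of the 3 motifs GCGCNTGC, CCGGAAG and GCCATNTTG was in 42 promoters (62.7%), against 39.1% of tested and 20.6% of all promoters. Median GC content was 58.0% in these promoters, 60.7% in those of tested genes and 52.8% in all. A match describes letters in this window and shows no binding.

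The promoters of 4 genes that stand out in the comparisons are shown 5′ to 3′ along the gene's strand: Mrps18b (chr17:35916391-35916690, minus strand), which rose in all 3 chronic groups, Mrpl12 (chr11:120484387-120484686, plus strand), which rose in polyclonal and fell in vehicle chronic cells, Mrpl18 (chr17:12916042-12916341, minus strand), which fell most in vehicle chronic cells, and Mrps6 (chr16:92058086-92058385, plus strand), which rose most. Capitals mark a match to a motif above on either strand. Mrps18b has 2 matches to GCGCATGC, which reads GCATGCGC on the strand shown, and 1 to CCGGAAG, Mrpl12 has 1 to GCGCNTGC, Mrpl18 has 1 to CCGGAAG, and Mrps6 has none.
Mrps18b: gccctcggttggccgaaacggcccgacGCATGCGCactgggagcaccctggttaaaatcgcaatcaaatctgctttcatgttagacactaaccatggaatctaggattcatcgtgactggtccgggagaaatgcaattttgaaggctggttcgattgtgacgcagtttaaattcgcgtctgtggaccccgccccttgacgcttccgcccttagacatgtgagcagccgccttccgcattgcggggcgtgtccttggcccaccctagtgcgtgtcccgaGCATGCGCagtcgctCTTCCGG
Mrpl12: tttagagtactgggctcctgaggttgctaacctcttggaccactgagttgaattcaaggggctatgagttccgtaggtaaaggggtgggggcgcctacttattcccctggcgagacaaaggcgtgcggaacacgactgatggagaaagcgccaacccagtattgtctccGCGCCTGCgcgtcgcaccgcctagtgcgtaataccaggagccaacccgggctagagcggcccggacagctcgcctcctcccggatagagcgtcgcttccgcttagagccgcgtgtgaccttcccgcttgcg
Mrpl18: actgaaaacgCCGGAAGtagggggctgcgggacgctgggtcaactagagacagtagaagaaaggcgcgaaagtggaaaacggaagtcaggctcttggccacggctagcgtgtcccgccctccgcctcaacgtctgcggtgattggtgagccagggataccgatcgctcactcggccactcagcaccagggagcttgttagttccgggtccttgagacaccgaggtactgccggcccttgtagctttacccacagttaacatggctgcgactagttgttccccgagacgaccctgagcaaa
Mrps6: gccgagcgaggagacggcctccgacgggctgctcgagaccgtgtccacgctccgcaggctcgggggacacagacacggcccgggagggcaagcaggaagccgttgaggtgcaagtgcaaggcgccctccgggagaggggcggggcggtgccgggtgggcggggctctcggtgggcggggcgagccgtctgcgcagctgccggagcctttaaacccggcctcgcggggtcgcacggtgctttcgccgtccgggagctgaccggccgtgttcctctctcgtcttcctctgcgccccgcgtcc

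In the vehicle experiment, mitochondrial ribosomal protein genes fell broadly with repeated stimulation. In vehicle chronic against vehicle acute cells 42 of the 76 fell and 4 rose, and the median log2 change was -0.23. Of all genes tested 34.4% fell and 24.5% rose, with a median of -0.03. The falls reached both subunits, with 27 of 47 Mrpl genes lower and 2 higher and 15 of 29 Mrps genes lower and 2 higher. Whether called or not, 53 genes had every vehicle chronic library below every acute one and 6 above, beside 41.2% and 31.9% of all genes. With each library rescaled to a common median of all genes, 38 fell and 4 rose, beside 32.7% and 25.9% of all genes. Of the 45 genes with a bacterial homologue 29 fell, and of the 31 specific to mitochondria 13 fell.

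Mrpl18, a large subunit protein with a bacterial homologue, had the lowest change. It had 71.1, 74.5 and 77.3 RPKM in vehicle chronic libraries, against 122.8, 124.6 and 126 RPKM in vehicle acute libraries (log2 change -0.74, SE 0.0794, adjusted p = 8.75e-08). The groups lay far apart, with little spread inside either. Mrpl28, a large subunit protein, had 28.3, 29.8 and 30.6 RPKM in vehicle chronic and 47.5, 48.8 and 52.9 RPKM in vehicle acute libraries (log2 change -0.73, SE 0.104, adjusted p = 4.07e-06). Mrpl12, which forms the stalk that recruits translation factors and also binds the mitochondrial RNA polymerase, had 69.8, 75.4 and 77.4 RPKM in vehicle chronic and 109.9, 113 and 115 RPKM in vehicle acute libraries (log2 change -0.60, SE 0.106, adjusted p = 6.1e-05). Neither gene's groups overlapped. The groups of Mrpl27 (log2 change -0.71), Mrps5 (-0.67), Mrpl14 (-0.67) and Mrps28 (-0.62) did not overlap either. Among genes chosen for their known roles, Mrpl3, a core protein near the peptidyl transferase centre, fell by 0.48 on the log2 scale, Mrpl11, of the factor-binding region, by 0.28, Mrps12, of the decoding centre, by 0.33, the small subunit gene Mrps22 by 0.23 and Mrps7, of the head of the small subunit, by 0.16 (adjusted p = 0.0213, and 0.0716 at a common median). Mrpl45, which anchors the ribosome at the inner membrane, had 26.8 ± 1.45 RPKM in vehicle chronic and 25.4 ± 0.346 RPKM in vehicle acute cells (SD, n = 3 each; log2 change 0.07, adjusted p = 0.260), and Mrps36 had a log2 change of -0.06 (adjusted p = 0.796).

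The 4 genes that rose were Mrps6, Mrpl52, Mrpl24 and Mrps18b. Mrps6, a small subunit protein with a bacterial homologue, had 47.1, 48.3 and 48.9 RPKM in vehicle chronic and 16.5, 17.0 and 18.9 RPKM in vehicle acute libraries (log2 change 1.41, SE 0.0984, adjusted p = 1.13e-10). This was the largest change of any of the 76 genes in the comparison. Mrpl52, a large subunit protein specific to mitochondria, had 158.9, 163.7 and 165.5 RPKM in vehicle chronic and 109.0, 114.8 and 117 RPKM in vehicle acute libraries (log2 change 0.51, adjusted p = 0.000307). Mrpl24 (log2 change 0.20) and Mrps18b (0.18) rose less, with no overlap between the groups of any of the 4.

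Reads of Mrps6 are uncertain. In GENCODE vM21 it shares an exon stretch of 159 bases on the same strand with Slc5a3, the gene of a myo-inositol transporter. Slc5a3 had 3.77 to 4.26 RPKM in vehicle chronic and 0.860 to 1.02 RPKM in vehicle acute libraries, and 4.74 to 6.49 RPKM in polyclonal chronic and 1.81 to 2.62 RPKM in polyclonal acute libraries. Both genes were thus higher in the same chronic groups, and the sources used here do not give how the authors' counting divided shared reads. In all, 14 of the 76 genes overlap an exon of another gene of the table, and only Mrps6 does so on the same strand. The others include Mrpl13 (with Mtbp), Mrpl18 (with Tcp1), Mrpl19 (with Gcfc2), Mrpl24 (with Rrnad1), Mrpl43 (with Peo1), Mrpl47, Mrpl48 and Mrps25 (with Nr2c2). The largest shared stretch was 17 bases for Mrpl18, 1962 bases for Mrpl19 and 3533 bases for Mrps25. Whether the libraries keep strand is not given, so reads within such a stretch cannot be told apart.

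Markers of other cells were counted beside these changes. The 3 NK markers measured summed to 295.6 to 309.6 RPKM in vehicle chronic and 23.4 to 28.2 RPKM in vehicle acute libraries. Only 1 of them, Fcer1g, was called higher (log2 change 4.02), and Ncr1 and Klrb1c were not. The 4 CD4 markers summed to 19.4 to 22.3 RPKM in vehicle chronic and 33.8 to 34.7 RPKM in vehicle acute libraries (1 higher, 2 lower), and the 7 CD8 T cell markers to 1818 to 1831 RPKM in vehicle chronic and 1475 to 1533 RPKM in vehicle acute libraries (4 higher, 2 lower). B cell markers summed to 3.18 to 4.50 RPKM in vehicle chronic and 4.87 to 6.32 RPKM in vehicle acute libraries (1 of 7 lower). Myeloid markers summed to 10.0 to 10.7 RPKM in vehicle chronic and 2.74 to 3.94 RPKM in vehicle acute libraries (3 of 5 higher), and melanocyte markers to 1.54 to 2.22 RPKM in vehicle chronic and 10.4 to 11.2 RPKM in vehicle acute libraries (2 of 12 lower). The part of NK, CD4 and myeloid marker changes in the result was not tested.

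**Figure D2:**
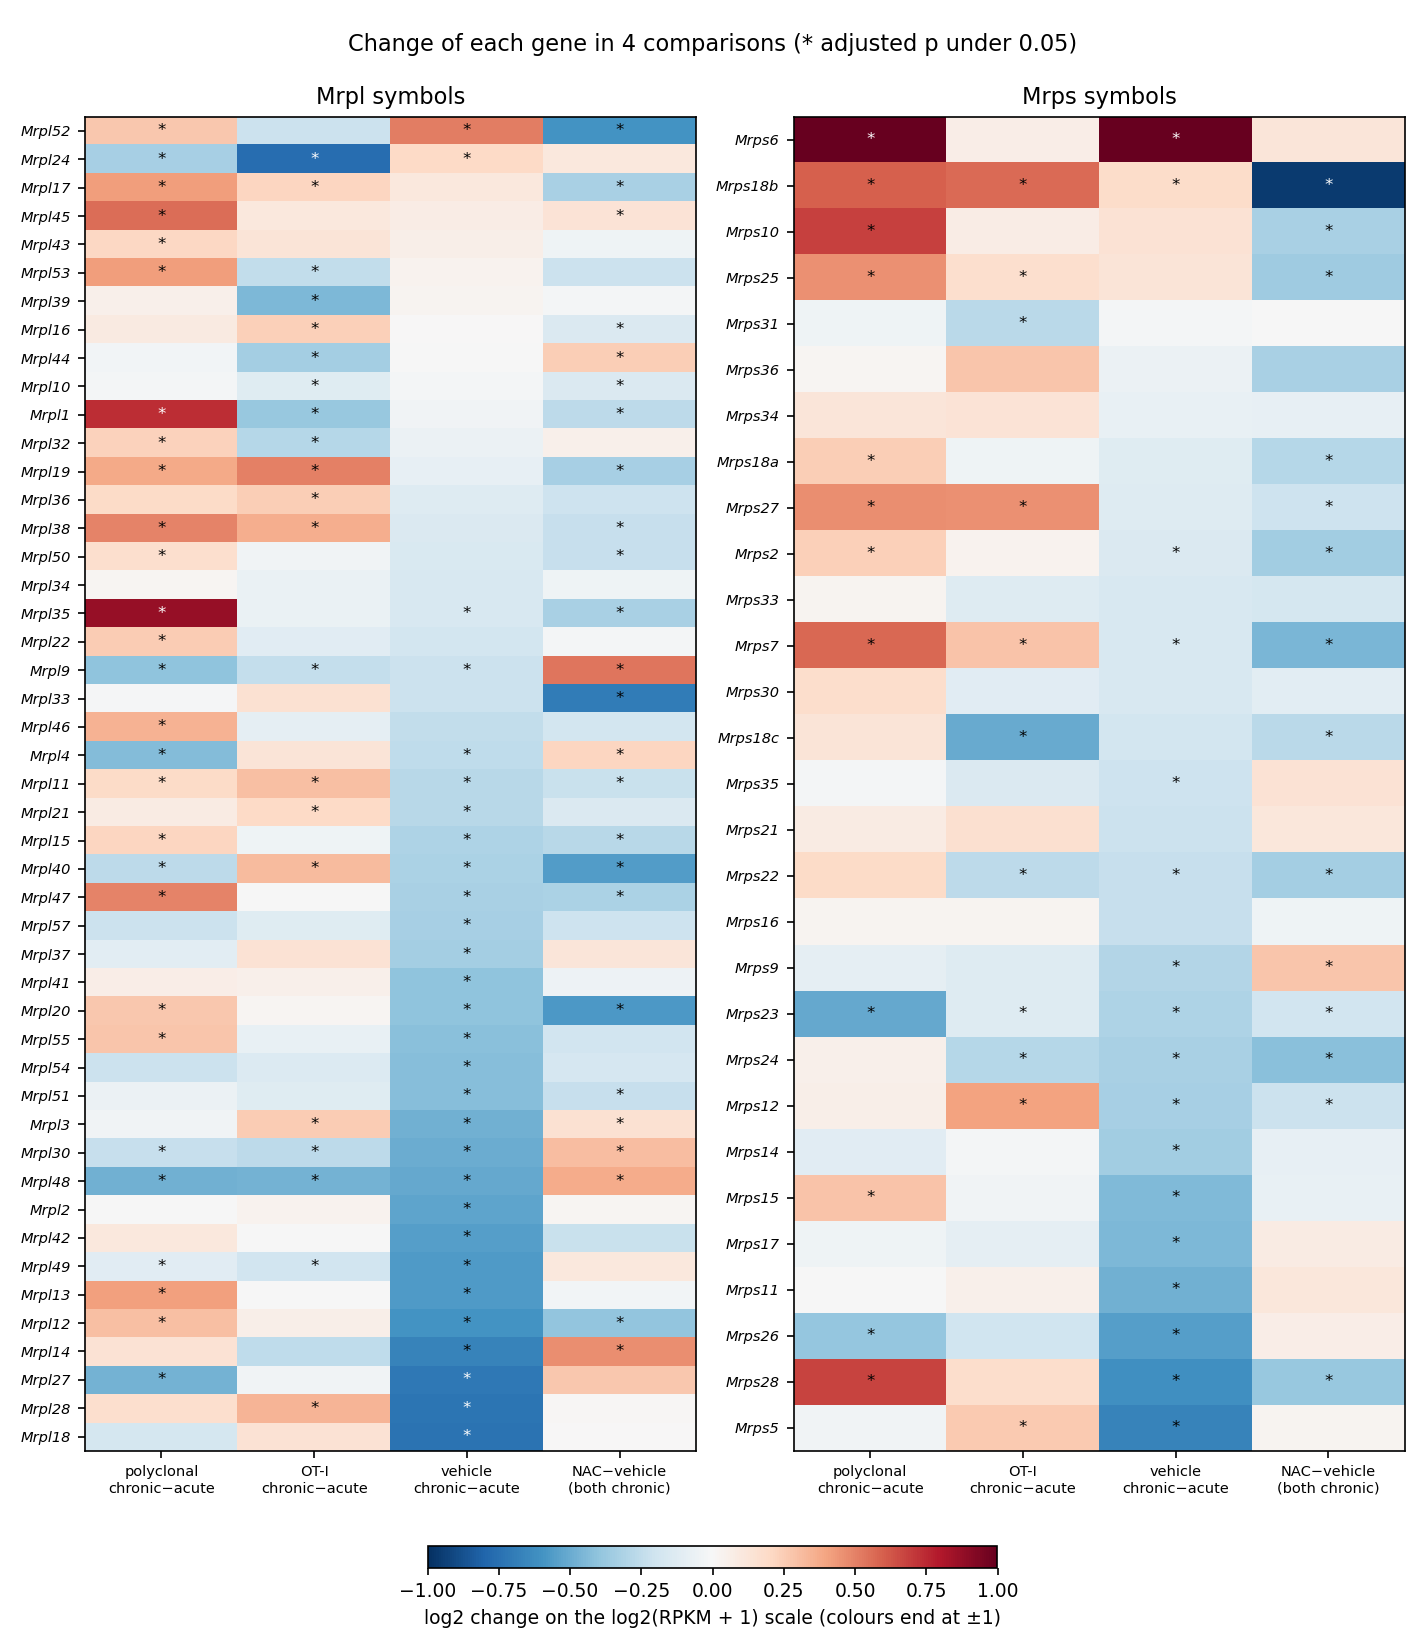
Log2 change (colour, ends at ±1) of each of the 76 genes in the 3 chronic against acute comparisons and in NAC against vehicle chronic cells, with an asterisk at adjusted p under 0.05. Genes run from the highest to the lowest change in the vehicle experiment; the blue block there (42 genes lower) is not matched in polyclonal cells, where 30 genes were higher.

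In polyclonal cells, by contrast, rises outnumbered falls. In libraries labelled polyclonal chronic against polyclonal acute cells 30 of the 76 genes rose and 10 fell, with a median log2 change of 0.10. Of all genes tested 28.6% rose and 35.5% fell, with a median of -0.08. Of the Mrpl genes 20 rose and 8 fell, and of the Mrps genes 10 rose and 2 fell. Whether called or not, 29 genes had every polyclonal chronic library above every acute one and 11 below, beside 26.8% and 32.8% of all genes. With each library rescaled to a common median, 33 rose and 8 fell, beside 30.8% and 33.1% of all genes.

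Mrps6 again rose most, with 36.1, 37.7 and 47.5 RPKM in polyclonal chronic and 17.0, 17.8 and 21.8 RPKM in polyclonal acute libraries (log2 change 1.06, SE 0.0984, adjusted p = 8.72e-09). Mrpl35, a large subunit protein with a bacterial homologue, had 14.7, 14.9 and 16.5 RPKM in polyclonal chronic and 7.29, 8.08 and 8.60 RPKM in polyclonal acute libraries (log2 change 0.87, SE 0.0639, adjusted p = 2.26e-10). Mrpl1, of the stalk near the exit site for transfer RNA, had 9.16, 11.1 and 11.7 RPKM in polyclonal chronic and 5.48, 5.88 and 6.56 RPKM in polyclonal acute libraries (log2 change 0.74, SE 0.094, adjusted p = 7.83e-07). In these 3 genes every polyclonal chronic library lay above every acute one. The small subunit genes Mrps10 (log2 change 0.69), Mrps28 (0.68), Mrps18b (0.60) and Mrps7 (0.58) and the membrane anchor gene Mrpl45 (0.56) rose as well, each with no overlap between groups. Mrpl12 rose by a log2 change of 0.30 (adjusted p = 0.0169), with 64.7, 74.4 and 78.8 RPKM in polyclonal chronic and 53.1, 60.7 and 61.9 RPKM in polyclonal acute libraries. Mrpl11 had a log2 change of 0.19 (adjusted p = 0.0238), with overlapping libraries. Mrpl3 (-0.03, adjusted p = 0.576), Mrps12 (0.06, adjusted p = 0.573), Mrps22 (0.19, adjusted p = 0.0544) and Mrps36 (0.02, adjusted p = 0.902) did not pass the test.

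Among the 10 genes that fell were Mrps23 and Mrps26, small subunit proteins specific to mitochondria, and Mrpl48, Mrpl27, Mrpl4 and Mrpl9 of the large subunit. Mrps23 had 33.8, 34.8 and 37.8 RPKM in polyclonal chronic and 48.4, 50.5 and 54.4 RPKM in polyclonal acute libraries (log2 change -0.51, SE 0.0502, adjusted p = 1.74e-08). The other log2 changes were -0.48 for Mrpl48, -0.47 for Mrpl27, -0.43 for Mrpl4, -0.40 for Mrpl9 and -0.39 for Mrps26. None of the 6 genes had overlapping groups. Mrpl27 spread widely in polyclonal chronic libraries (14.7, 22.3 and 23.9 RPKM).

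Cell type markers moved strongly in this comparison. All 7 B cell markers measured rose, with sums of 215.6 to 236 RPKM in polyclonal chronic and 3.40 to 15.9 RPKM in polyclonal acute libraries. Of 4 CD4 markers 3 rose, with sums of 377.5 to 403 RPKM in polyclonal chronic and 99.5 to 108 RPKM in polyclonal acute libraries. Of 7 CD8 T cell markers 2 rose and 4 fell, with sums of 1381 to 1571 RPKM in polyclonal chronic and 1828 to 2009 RPKM in polyclonal acute libraries. The sums hide a larger fall of the CD8 coreceptor genes Cd8a (log2 change -3.43) and Cd8b1 (-3.48). The 2 that rose, Cd5 (1.44) and Cd2 (0.42), are also expressed in CD4 T cells. NK markers had sums of 30.7 to 37.6 RPKM in polyclonal chronic and 62.6 to 70.2 RPKM in polyclonal acute libraries (2 of 3 lower), and myeloid markers of 11.6 to 14.9 RPKM in polyclonal chronic and 18.2 to 27.4 RPKM in polyclonal acute libraries (1 of 5 higher, 2 lower). Melanocyte markers summed to 50.3 to 72.5 RPKM in polyclonal chronic and 34.1 to 81.4 RPKM in polyclonal acute libraries (1 of 12 higher, 1 lower). Their part in the changes of the ribosomal genes was not tested. Cell composition and the chronic stimulus cannot be told apart in these libraries.

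In OT-I co-cultures rises and falls were equal in number. In OT-I chronic against OT-I acute cells 16 of the 76 genes rose and 16 fell, with a median log2 change of -0.01. Of all genes tested 22.4% rose and 36.2% fell, with a median of -0.12. The balance changed with the OT-I acute libraries kept. Without OT-I acute replicate 3, 11 genes rose and 24 fell, and without OT-I acute replicate 2, 20 rose and 10 fell. Shares of all genes in these refits are not given here, so a shift of all genes cannot be told apart from one of the 76. With each library rescaled to a common median, 22 rose and 6 fell, beside 27.9% and 28.2% of all genes. Whether called or not, 16 genes had every OT-I chronic library above every acute one and 12 below, beside 23.8% and 41.3% of all genes. No direction is therefore given for the genes as a whole in these cells.

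Single genes passed the test in both directions. Mrps18b, a small subunit protein related to bacterial S18 and counted above with those specific to mitochondria, had 26.3, 27.7 and 28.1 RPKM in OT-I chronic and 17.9, 18.1 and 18.3 RPKM in OT-I acute libraries (log2 change 0.57, SE 0.0594, adjusted p = 8.76e-08). Mrpl19 (log2 change 0.50), Mrps27 (0.45), Mrps12 (0.41), Mrpl38 (0.36) and Mrpl28 (0.34) rose as well, with no overlap between groups. Mrpl28 did not pass without OT-I acute replicate 3 (log2 change 0.19, adjusted p = 0.0731). Mrpl24, a large subunit protein, fell most, with 52.4, 53.1 and 53.8 RPKM in OT-I chronic and 78.8, 96.2 and 99.2 RPKM in OT-I acute libraries (log2 change -0.76, SE 0.0725, adjusted p = 2.31e-08). Mrps18c, a further relative of bacterial S18, fell by 0.51 on the log2 scale, opposite to Mrps18b. Mrpl48 (-0.47), Mrpl39 (-0.45), Mrpl1 (-0.38) and Mrpl44 (-0.34) fell too, each with no overlap. Of the genes chosen for their roles, Mrpl3 (log2 change 0.25), Mrpl11 (0.30) and Mrps7 (0.28) rose and Mrps22 fell (-0.26, adjusted p = 0.0133), with overlapping libraries and an adjusted p of 0.0948 at a common median. Mrpl12 (0.06, adjusted p = 0.675), Mrpl45 (0.10, adjusted p = 0.107) and Mrps36 (0.27, adjusted p = 0.107) did not pass, though Mrpl45 (0.19, adjusted p = 0.0114) and Mrps36 (0.36, adjusted p = 0.0317) did at a common median.

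These libraries hold RNA of T cells and melanoma cells together, which cannot be told apart for genes that both express. The 12 melanocyte markers summed to 4655 to 4781 RPKM in OT-I chronic and 7969.7 to 8269 RPKM in OT-I acute libraries, 9 of them lower. B cell markers summed to 45.3 to 49.1 RPKM in OT-I chronic and 5.20 to 11.9 RPKM in OT-I acute libraries (6 of 7 higher), NK markers to 68.5 to 75.95 RPKM in OT-I chronic and 26.8 to 34.1 RPKM in OT-I acute libraries (3 of 3 higher), and myeloid markers to 18.7 to 20.05 RPKM in OT-I chronic and 2.92 to 7.35 RPKM in OT-I acute libraries (2 of 5 higher). CD8 T cell markers summed to 878 to 899.6 RPKM in OT-I chronic and 1026 to 1293 RPKM in OT-I acute libraries (1 of 7 higher, 5 lower), and CD4 markers to 23.4 to 24.6 RPKM in OT-I chronic and 36.7 to 41.5 RPKM in OT-I acute libraries (1 of 4 higher, 2 lower). Their part in the changes was not tested.

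**Figure D3:**
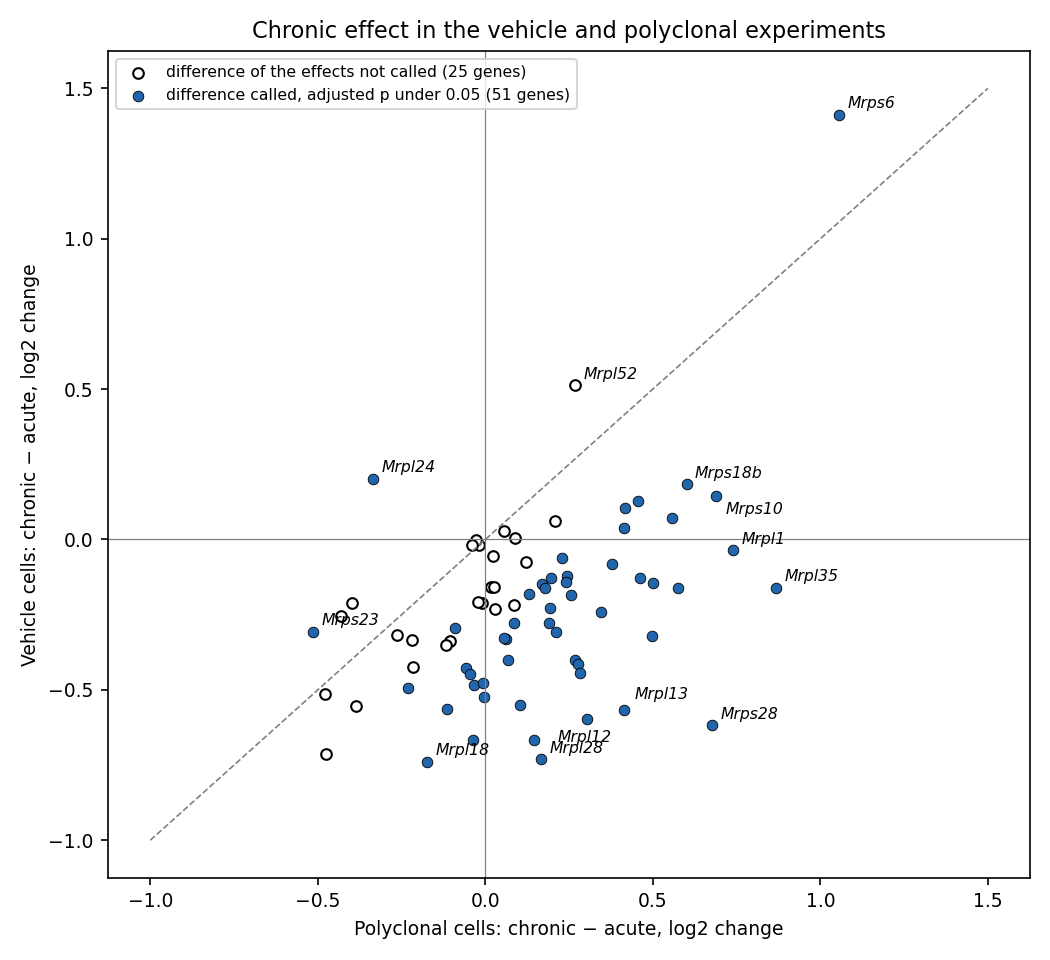
Chronic effect (log2 change, chronic minus acute) of each of the 76 genes in vehicle cells (vertical) and in polyclonal cells (horizontal). Filled points are the 51 genes whose 2 effects differed at adjusted p under 0.05, of which 48 lie below the dashed line of equal effects; Mrps6 stands apart at 1.41 and 1.06.

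The chronic effects of the 3 experiments, which share no libraries, were tested against each other. The vehicle effect was lower than the polyclonal effect for 48 of the 76 genes and higher for 3, where 27.3% of all genes were lower and 25.1% higher. Rescaled to a common median it was lower for 46 and higher for 1, beside 28.2% and 24.2% of all genes. The genes lower in this test included Mrps28 (difference of log2 changes -1.29, SE 0.175, adjusted p = 3.11e-06), Mrpl35 (-1.03), Mrpl13 (-0.98) and Mrpl12 (-0.90). Mrps28, a small subunit protein, had 17.6, 19.1 and 19.4 RPKM in vehicle chronic and 27.7, 29.6 and 30.3 RPKM in vehicle acute libraries, but 15.6, 18.5 and 19.9 RPKM in polyclonal chronic and 8.88, 10.8 and 13.2 RPKM in polyclonal acute libraries. The chronic groups overlapped in level between the experiments, and the acute groups did not. In the same way Mrpl12 had 74.2 ± 3.95 RPKM in vehicle chronic and 112.6 ± 2.49 RPKM in vehicle acute cells, beside 72.6 ± 7.23 RPKM in polyclonal chronic and 58.6 ± 4.79 RPKM in polyclonal acute cells (SD, n = 3 each).

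Genes that rose in polyclonal and fell in vehicle cells numbered 12 of the 76 (15.8%), against 6.24% of all genes tested: Mrpl11, Mrpl12, Mrpl13, Mrpl15, Mrpl20, Mrpl35, Mrpl47, Mrpl55, Mrps2, Mrps7, Mrps15 and Mrps28. Only Mrpl24 did the opposite (1.32% of the 76, against 4.54% of all genes), with log2 changes of 0.20 in vehicle and -0.34 in polyclonal cells and a difference of 0.54 (adjusted p = 0.000175). Genes lower in all 3 chronic groups were Mrpl9, Mrpl30, Mrpl48, Mrpl49 and Mrps23 (6.58%, against 10.8% of all genes), and only Mrps18b was higher in all 3 (1.32%, against 5.38%). Genes that rose in polyclonal and vehicle cells were Mrps6, Mrpl52 and Mrps18b (3.95%, against 13.5%), where in OT-I cells Mrps6 had 34.1 to 36.3 RPKM in chronic and 28.8 to 38.1 RPKM in acute libraries. Its OT-I effect was lower than the vehicle effect by a difference of -1.35 (adjusted p = 6.62e-08) and than the polyclonal effect by -0.99 (adjusted p = 4.58e-06). Called in some direction in all 3 were 10 genes (13.2%, against 30.1% of all genes). Called in none of the 3 were 8 genes (against 12.1% of all genes), Mrpl33, Mrpl34, Mrps16, Mrps21, Mrps30, Mrps33, Mrps34 and Mrps36, among them Mrpl33 and Mrps21 of the 4 most abundant.

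The OT-I effect was higher than the vehicle effect for 36 of the 76 genes and lower for 7, where 27.4% of all genes were higher and 31.1% lower. After rescaling the counts were 41 higher and 5 lower, beside 30.6% and 27.3% of all genes. Mrpl28 (difference 1.07, SE 0.147, adjusted p = 3.11e-06), Mrps5 (0.93), Mrpl18 (0.88) and Mrps28 (0.79) were highest in this test. Genes that rose in OT-I and fell in vehicle cells numbered 8 (against 8.51% of all genes), Mrpl3, Mrpl11, Mrpl21, Mrpl28, Mrpl40, Mrps5, Mrps7 and Mrps12, and only Mrpl24 fell in OT-I and rose in vehicle cells (1.32%, against 7.63%). At the other end of the test, besides Mrps6, the genes Mrpl24 (-0.97), Mrpl52 (-0.73) and Mrpl39 (-0.48) were lowest. Against the polyclonal effect the OT-I effect was lower for 26 genes and higher for 10, where 29.2% of all genes were lower and 26.6% higher. The 10 higher genes became 4 without OT-I acute replicate 3, 6 without OT-I chronic replicate 3, and 5 with voom, with only the groups compared in the fit, or without the 3 libraries with raised low genes. After rescaling to a common median the counts were 18 lower and 10 higher, beside 26.5% and 29.3% of all genes. Mrpl1 fell in OT-I and rose in polyclonal cells (difference -1.12, SE 0.133, adjusted p = 4.95e-07), as Mrpl32 and Mrpl53 did (3.95% of the 76, against 6.85% of all genes). Mrpl35 (-0.93) and Mrpl53 (-0.66) were also among the lowest. Mrpl40, a large subunit protein specific to mitochondria, alone rose in OT-I cells (log2 change 0.32) and fell in polyclonal cells (-0.26; 1.32%, against 5.01% of all genes), a difference of 0.58 (adjusted p = 0.000121). Mrpl4 (0.56), Mrps23 (0.39) and Mrpl27 (0.44, adjusted p = 0.031) were higher as well. Differences that use the same experiment share its libraries.

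With NAC in repeatedly stimulated cells more of these genes fell than rose. In NAC chronic against vehicle chronic cells 30 of the 76 genes fell and 9 rose, with a median log2 change of -0.14. Of all genes tested 22.6% fell and 38.5% rose, with a median of 0.08. Rescaling each library to a common median moved the median of all genes by -0.16 on the log2 scale, and then 48 of the 76 fell and 1 rose, beside 33.4% and 26.2% of all genes. Whether called or not, 35 genes had every NAC chronic library below every vehicle chronic one and 14 above, beside 28.7% and 47.1% of all genes. Both of these scalings gave more falls than rises, and the rises depended on the scaling. As a share of all RPKM, however, the summed level was 1.64% higher in NAC chronic than in vehicle chronic cells. Single genes were not tested on that scale. Of the Mrpl genes 17 fell and 8 rose, and of the Mrps genes 13 fell and 1 rose.

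Mrps18b fell most, with 10.8, 12.45 and 12.51 RPKM in NAC chronic and 23.3, 23.6 and 25.3 RPKM in vehicle chronic libraries (log2 change -0.95, SE 0.0594, adjusted p = 2.63e-11, and -1.11 at a common median). Its level in NAC chronic cells was also below that of vehicle acute cells, which had 19.97, 20.9 and 22.3 RPKM (log2 change -0.77, adjusted p = 5.01e-10). The gene that rose in all 3 chronic groups thus had its lowest level of the 7 groups with NAC. Mrpl52 had 101.2, 106.5 and 115 RPKM in NAC chronic and 158.9, 163.7 and 165.5 RPKM in vehicle chronic libraries (log2 change -0.59, adjusted p = 6.52e-05), and the NAC chronic libraries overlapped the vehicle acute ones (109.0, 114.8 and 117 RPKM). Mrpl20, a large subunit protein, had 56.1, 61.9 and 62.0 RPKM in NAC chronic and 88.4, 88.7 and 92.5 RPKM in vehicle chronic libraries (log2 change -0.58, adjusted p = 4.46e-06). Mrpl40 (-0.56), Mrps7 (-0.46) and Mrps24 (-0.42) fell with no overlap. Mrpl33, chosen after its values were seen, was called lower (log2 change -0.70, adjusted p = 0.00243) although 124 RPKM in a NAC chronic library exceeded 117 RPKM in a vehicle chronic one. Of the genes chosen for their roles, Mrpl12 (-0.40), Mrps22 (-0.34), Mrpl11 (-0.22) and Mrps12 (-0.21) fell, and Mrps36 did not pass (-0.33, adjusted p = 0.0541).

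Mrpl9, a large subunit protein with a bacterial homologue, rose most, with 86.2, 86.3 and 88.8 RPKM in NAC chronic and 56.8, 60.9 and 61.4 RPKM in vehicle chronic libraries (log2 change 0.54, SE 0.0754, adjusted p = 3.57e-06). At a common median it was the only one of the 76 to rise, by 0.38 (adjusted p = 0.00139). Mrpl14 (log2 change 0.46), Mrpl48 (0.37), Mrpl30 (0.31), Mrps9 (0.28) and Mrpl44 (0.25) rose on the deposited scale with no overlap. At a common median their log2 changes were 0.30, 0.21, 0.15, 0.11 and 0.09, with adjusted p of 0.0699, 0.107, 0.148, 0.132 and 0.264, and none passed. Mrpl3 (0.15) and Mrpl45 (0.14) were called higher on the deposited scale but had log2 changes of -0.01 and -0.03 at a common median. Mrpl9, Mrpl30 and Mrpl48 also belong to the 5 genes that fell in all 3 chronic groups, and the vehicle chronic libraries enter both of these comparisons.

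Against vehicle acute cells, NAC chronic cells had 55 of the 76 genes lower and 5 higher (median log2 change -0.38), where 29.9% of all genes were lower and 36.3% higher. At a common median 63 were lower and 1 higher, beside 38.5% and 28.0% of all genes. Whether called or not, 59 genes had every NAC chronic library below every vehicle acute one and 5 above, beside 34.6% and 43.3% of all genes. Mrps28 (log2 change -0.998), Mrpl12 (-0.99), Mrpl20 (-0.98) and Mrpl33 (-0.91) were lowest. Mrpl12 had 52.2, 57.7 and 58.5 RPKM in NAC chronic libraries, against 109.9, 113 and 115 RPKM in vehicle acute ones. Mrps6 was highest (log2 change 1.54, SE 0.0984, adjusted p = 2.68e-11), with 52.0, 52.4 and 53.1 RPKM in NAC chronic and 16.5, 17.0 and 18.9 RPKM in vehicle acute libraries. Mrps6 did not pass between NAC chronic and vehicle chronic cells (log2 change 0.12, adjusted p = 0.303). Mrpl9 (0.33), Mrpl24 (0.30), Mrpl44 (0.24) and Mrpl45 (0.21) were the other genes higher than in vehicle acute cells, and none of these 4 passed at a common median. Mrps36 was lower (-0.38, adjusted p = 0.0237). Vehicle acute libraries serve in this comparison and in the vehicle one, so the falls they share are given side by side only: for Mrpl18, log2 changes of -0.73 in NAC chronic and -0.74 in vehicle chronic cells, and for Mrpl28 of -0.72 and -0.73.

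Markers moved with NAC too. CD4 markers summed to 74.9 to 76.8 RPKM in NAC chronic and 19.4 to 22.3 RPKM in vehicle chronic libraries (4 of 4 higher). CD8 T cell markers summed to 2279 to 2327 RPKM in NAC chronic and 1818 to 1831 RPKM in vehicle chronic libraries (4 of 7 higher), and NK markers to 46.9 to 49.2 RPKM in NAC chronic and 295.6 to 309.6 RPKM in vehicle chronic libraries (2 of 3 lower). Myeloid markers summed to 31.2 to 33.0 RPKM in NAC chronic and 10.0 to 10.7 RPKM in vehicle chronic libraries (2 of 5 higher, 1 lower), and B cell markers to 10.1 to 11.4 RPKM in NAC chronic and 3.18 to 4.50 RPKM in vehicle chronic libraries (2 of 7 higher). Melanocyte markers summed to 7.49 to 8.76 RPKM in NAC chronic and 1.54 to 2.22 RPKM in vehicle chronic libraries (3 of 12 higher). Their part in the changes was not tested.

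**Figure D4:**
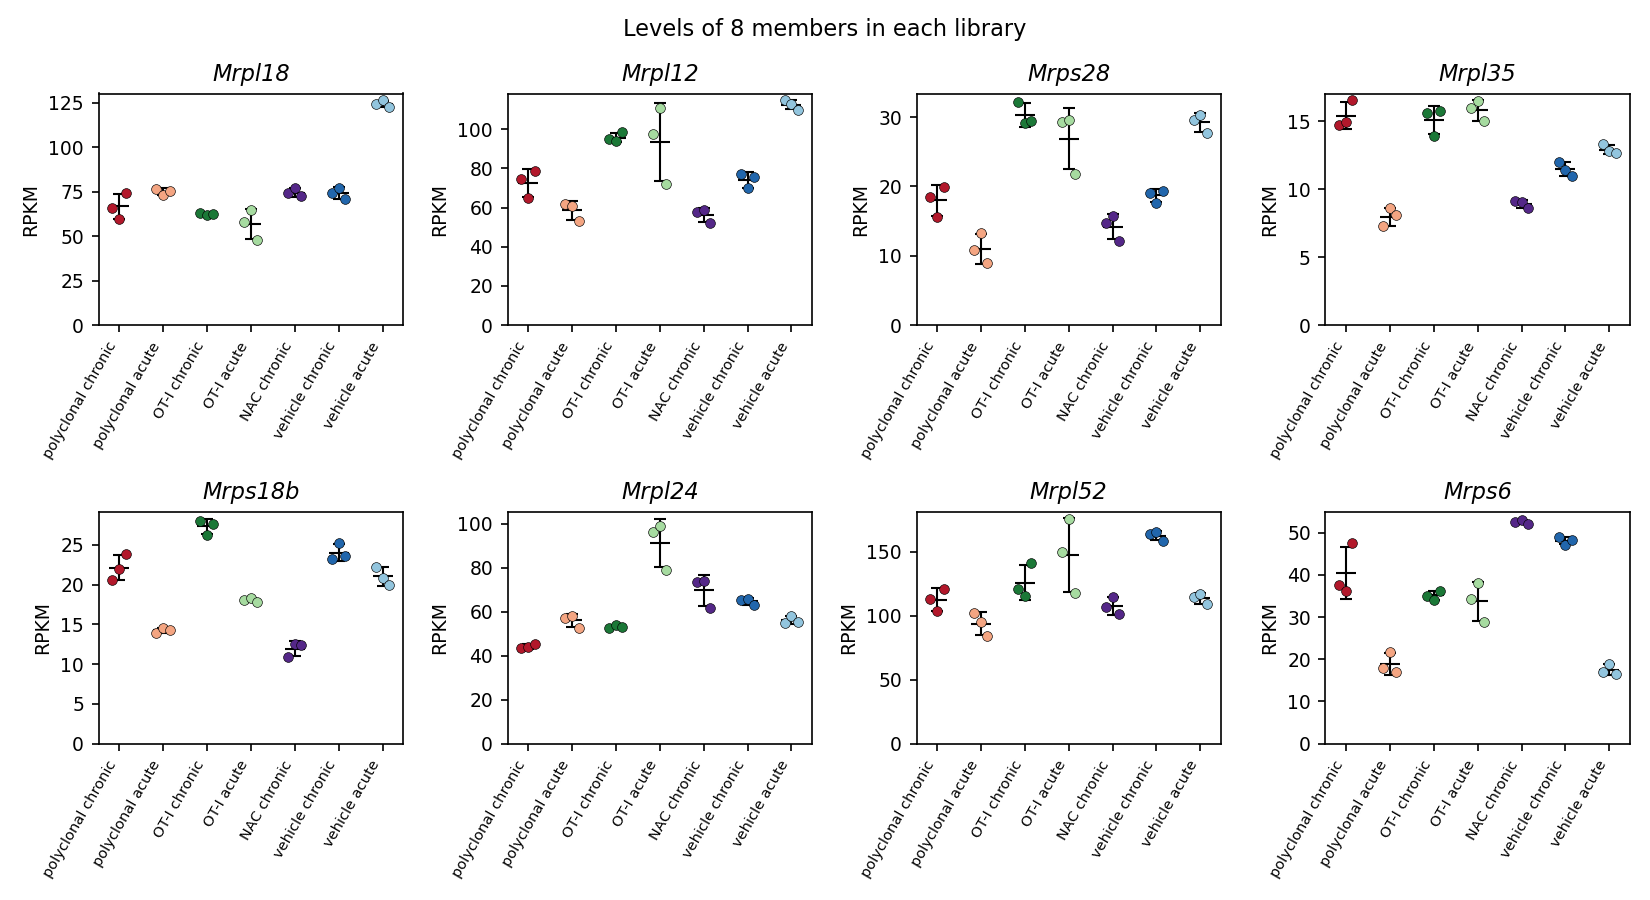
RPKM of 8 genes in each library (vertical axes, RPKM) by group, with mean ± SD of 3 libraries. Mrpl18 is highest in vehicle acute cells (122.8 to 126 RPKM), Mrps18b is lowest in NAC chronic cells (10.8 to 12.51 RPKM), and Mrps6 is lowest in the polyclonal acute and vehicle acute groups.

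Promoter motifs were set beside the calls as a description. Of all genes tested 34.4% fell and 24.5% rose in vehicle chronic cells, 22.6% fell and 38.5% rose with NAC, and 35.5% fell and 28.6% rose in polyclonal chronic cells. Shares called among all tested genes that hold a given motif are not given here, so no count below is read as particular to a motif. Of the 11 genes whose promoter holds GCCATNTTG, 9 fell and 0 rose in vehicle chronic cells, against 27 lower and 4 higher of the other 56. With NAC 9 of the 11 fell and 0 rose, against 17 lower and 8 higher of the 56, and in polyclonal chronic cells 1 fell and 6 rose, against 8 lower and 19 higher. Of the 22 with GCGCNTGC 10 fell and 2 rose in vehicle chronic cells, against 26 lower and 2 higher of the other 45. With NAC 8 of the 22 fell and 7 rose, against 18 lower and 1 higher, and in polyclonal chronic cells 4 fell and 10 rose, against 5 lower and 15 higher. Of the 8 that hold its stricter form 1 fell and 1 rose in vehicle chronic cells, 4 fell and 1 rose with NAC, and 1 fell and 4 rose in polyclonal chronic cells. Of the 25 with CCGGAAG 11 fell and 2 rose in vehicle chronic cells, against 25 lower and 2 higher of the other 42. With NAC 11 of the 25 fell and 2 rose, against 15 lower and 6 higher, and in polyclonal chronic cells 4 fell and 8 rose, against 5 lower and 17 higher. Of the 5 with CACGTG 3 fell in vehicle chronic cells and 2 with NAC, and 1 rose in polyclonal chronic cells. The calls with NAC are on the deposited scale. At a common median 1 of the 76 genes, Mrpl9, rose with NAC and 48 fell, so the rises with NAC in each split depended on the scaling. None of the differences between genes with and without a motif was tested.

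Mitochondrial ribosomal proteins with other names were followed as a small list. Of Dap3, Ptcd3, Chchd1, Aurkaip1, Gadd45gip1 and Ict1, 0 rose and 4 fell in vehicle chronic cells, 3 rose and 2 fell in polyclonal chronic cells, 1 rose and 3 fell in OT-I chronic cells, and 2 rose and 2 fell with NAC. Of all genes tested 24.5% rose and 34.4% fell in vehicle, 28.6% and 35.5% in polyclonal and 22.4% and 36.2% in OT-I chronic cells, and 38.5% and 22.6% with NAC. The list is too short for its counts to be read against these shares. Dap3, a GTP-binding protein of the small subunit, had 9.58, 9.83 and 10.9 RPKM in vehicle chronic and 14.8, 16.6 and 17.6 RPKM in vehicle acute libraries (log2 change -0.64), and 17.4, 18.3 and 19.7 RPKM in NAC chronic libraries (log2 change 0.81 against vehicle chronic). Its NAC chronic and vehicle acute libraries overlapped. Ict1, a peptidyl-tRNA hydrolase built into the large subunit, fell in polyclonal (log2 change -0.97), OT-I (-0.79) and vehicle chronic cells (-0.49). Ptcd3, an RNA-binding protein of the small subunit, rose in polyclonal (0.59) and OT-I cells (0.15) and fell with NAC (-0.21).

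Factors that build and use the ribosome were counted in the same fit, in which 24.5% of all genes rose and 34.4% fell in vehicle chronic cells, 28.6% and 35.5% in polyclonal chronic cells, 22.4% and 36.2% in OT-I chronic cells, and 38.5% and 22.6% with NAC. The counts are read against those shares, and nothing particular to a list is drawn from them. Of 25 assembly factors 1 rose and 8 fell in vehicle chronic cells, 4 rose and 8 fell in polyclonal chronic cells, 4 rose and 14 fell in OT-I chronic cells, and 7 rose and 4 fell with NAC. Nsun4, a methyltransferase of mitochondrial ribosomal RNA, rose in vehicle (log2 change 0.97) and polyclonal chronic cells (0.46), and Mterf3, which acts in large subunit biogenesis, fell in OT-I chronic cells (-0.75). Of 16 translation factors 3 rose and 5 fell in vehicle, 3 rose and 6 fell in polyclonal and 4 rose and 6 fell in OT-I chronic cells, and 5 rose and 3 fell with NAC. The elongation factor gene Gfm1 fell in vehicle chronic cells (-0.41) and with NAC (-0.27) and rose in polyclonal (0.23) and OT-I chronic cells (0.40). Of 18 genes for expression of mitochondrial DNA 4 rose and 9 fell in vehicle, 7 rose and 4 fell in polyclonal and 5 rose and 3 fell in OT-I chronic cells, and 4 rose and 5 fell with NAC. Tfam, which packages mitochondrial DNA and starts its transcription, had 11.98, 12.1 and 12.47 RPKM in vehicle chronic and 20.1, 20.1 and 20.97 RPKM in vehicle acute libraries (log2 change -0.70) and fell in OT-I (-0.46) and polyclonal chronic cells (-0.24). Other genes of that list went the other way. Hsd17b10 rose in polyclonal (1.71) and vehicle chronic cells (1.23), and Elac2 in OT-I (1.02) and vehicle chronic cells (0.58). With NAC both fell (-0.93 and -0.83).

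Counts of 11 regulators of mitochondrial biogenesis are read against the same shares of all genes: 4 rose and 4 fell in vehicle, 5 rose and 3 fell in polyclonal and 4 rose and 4 fell in OT-I chronic cells, and 3 rose and 4 fell with NAC. Nrf1 and Gabpa, whose motif cores were described above, fell in vehicle chronic (log2 changes -0.49 and -0.26) and polyclonal chronic cells (-0.46 and -0.36). Nrf1 also fell in OT-I chronic cells (-0.37). Both rose with NAC on the deposited scale, Nrf1 by 0.16 (adjusted p = 0.0432) and Gabpa by 0.23 (adjusted p = 0.0011) on the log2 scale. Rescaling to a common median moved changes with NAC by -0.16, about the size of the Nrf1 rise. Whether either rise passes at a common median is not given here. Myc, a growth regulator that raises genes of ribosome and mitochondrial biogenesis, rose in polyclonal (1.01), OT-I (0.36) and vehicle chronic cells (0.21) and fell with NAC (-0.57). Its relative Mycn rose in polyclonal (1.201) and OT-I chronic cells (1.97) and fell in vehicle chronic cells (-1.08) and with NAC (-1.62). Mycn had 0.475 to 0.691 RPKM in NAC chronic, 3.51 to 4.06 RPKM in vehicle chronic and 7.68 to 10.503 RPKM in vehicle acute libraries, an order in which the groups did not overlap. Pprc1, a coactivator of the same programme, rose in OT-I (0.85) and polyclonal chronic cells (0.82) and fell with NAC (-0.93).

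**Figure D5:**
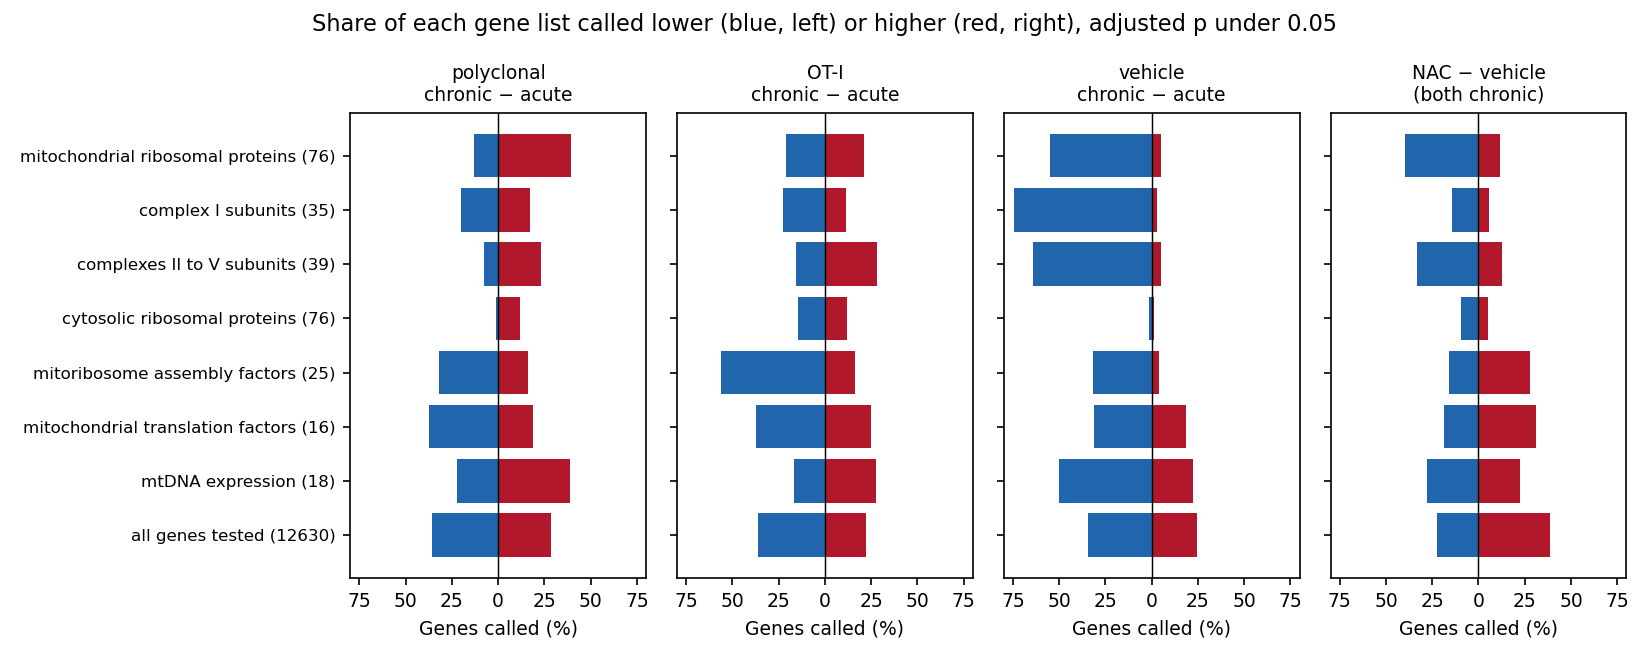
Share of each gene list (%) called lower (left of 0) or higher (right of 0) in 4 comparisons, with the number of genes of each list in brackets. In vehicle chronic cells the lower share is large for the 76 mitochondrial ribosomal protein genes (55.3%) and both respiratory chain lists, and 1 of 76 cytosolic ribosomal protein genes was lower.

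Genes of the respiratory chain and of the cytosolic ribosome were counted against the same shares of all genes. In vehicle chronic cells 26 of 35 complex I genes fell and 1 rose (median log2 change -0.33), 25 of 39 genes of complexes II to V fell and 2 rose (-0.29), and 1 of 76 cytosolic ribosomal protein genes fell and 1 rose (-0.00). In polyclonal chronic cells 7 complex I genes fell and 6 rose, 3 genes of complexes II to V fell and 9 rose, and 1 cytosolic ribosomal protein gene fell and 9 rose. In OT-I chronic cells 8 complex I genes fell and 4 rose, 6 of complexes II to V fell and 11 rose, and 11 cytosolic ribosomal protein genes fell and 9 rose. With NAC 5 complex I genes fell and 2 rose (median -0.00), 13 of complexes II to V fell and 5 rose (-0.07), and 7 cytosolic ribosomal protein genes fell and 4 rose (0.01). The 76 mitochondrial ribosomal genes had a median of -0.14 there. Summed RPKM of complex I was 2751 to 2772 RPKM in NAC chronic and 2679 to 2788 RPKM in vehicle chronic libraries, which overlapped, while its share of all RPKM was 0.665 to 0.673% in NAC chronic and 0.595 to 0.614% in vehicle chronic libraries, which did not. The difference between the lists was not tested.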

How the data were processed

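The authors deposited linear RPKM values, a column for each library. Per the labels' protocols, Trizol RNA was selected for poly(A) and made into libraries with the NEBNext Ultra kit. Named without role or order in the submitters' processing notes are bcl2fastq 2.17, edgeR, HTSeq and the build mm9; the sources used here give no aligner, annotation or strand. Whole reads were recovered from RPKM for 100% of genes within 0.001 reads, which gave the depths. None of the 21 pairs of libraries within a group agreed within sampling noise (chi-square per gene 1.52 to 54.6).

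Groups came from the labels. Values were transformed to log2(RPKM + 1), genes were kept where 3 or more libraries reached an RPKM of 1, and limma 3.58.1 (R 4.3.3) was fitted to all 21 libraries with a mean per group and an empirical Bayes trend. Tests were two-sided with Benjamini-Hochberg adjustment over 12630 genes. Polyclonal libraries of the same number deviated together (r of 0.446, 0.629 and 0.168), although chronic replicate 3 correlated more with acute replicate 1 (r of 0.569), and were treated as paired in an alternative fit. Other alternatives changed the pseudocount, the filter, the scaling, the fold threshold or the libraries, or used limma's voom on the recovered reads; leaving out the 3 libraries with raised low genes was chosen after seeing the data.

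The genes and lists were chosen with earlier results of these data known. Named were up to 6 genes at either end among those called with no overlap in the main comparisons, 4 in the others, genes called alike or oppositely across chronic comparisons, 8 genes by role and the 4 highest and lowest in level.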

Additional observations from a re-analysis of the deposited data

Results flagged for a closer look

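Chronic effects of single genes differed between the experiments in direct tests in the limma fit (adjusted p under 0.05), and each value here is a difference of log2 changes. The vehicle effect minus the polyclonal effect was lower for 48 and higher for 3 of the 76 genes, beside 27.3% and 25.1% of all genes. It was -1.29 for Mrps28, -1.03 for Mrpl35, -0.98 for Mrpl13 and -0.90 for Mrpl12. It was 0.54 for Mrpl24, 0.36 for Mrps6 and 0.21 for Mrps23. The Mrps6 value (adjusted p = 0.0377) did not pass at a common median, with voom, with the replicate block, without the 3 libraries with raised low genes, or without any one library of these experiments other than polyclonal acute replicates 1 and 3, polyclonal chronic replicate 3 and vehicle acute replicate 2. The Mrps23 value (adjusted p = 0.0186) did not pass at a common median or without polyclonal acute replicate 1, so Mrpl24 alone of the 3 higher genes passed at a common median.

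The OT-I effect minus the vehicle effect was higher for 36 and lower for 7 genes, beside 27.4% and 31.1% of all genes. It was 1.07 for Mrpl28, 0.93 for Mrps5, 0.88 for Mrpl18 and 0.79 for Mrps28, and -1.35 for Mrps6, -0.97 for Mrpl24, -0.73 for Mrpl52 and -0.48 for Mrpl39.

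The OT-I effect minus the polyclonal effect was higher for 10 and lower for 26 genes, beside 26.6% and 29.2% of all genes. At a common median 10 were higher and 18 lower, beside 29.3% and 26.5% of all genes. Leaving out each library in turn gave 4 to 10 higher genes, and no direction is drawn for the 76 genes. The difference was 0.58 for Mrpl40, 0.56 for Mrpl4, 0.44 for Mrpl27 and 0.39 for Mrps23, and -1.12 for Mrpl1, -0.99 for Mrps6, -0.93 for Mrpl35 and -0.66 for Mrpl53. The Mrpl27 value (adjusted p = 0.031) was lost with voom, with only the groups compared in the fit and without the 3 libraries. Markers of CD4 T cells, B cells and melanoma cells also differed between these experiments, and their part in the differences was not tested.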

How the results depend on the processing

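Counts are higher and lower genes of the 76. With a threshold of 1.5-fold added, they were 6 and 0 in polyclonal, 0 and 1 in OT-I, 1 and 7 in vehicle chronic cells, 0 and 3 for NAC against vehicle chronic and 1 and 17 for NAC against vehicle acute cells. The differences then gave 0 and 6 (OT-I minus polyclonal), 0 and 17 (vehicle minus polyclonal) and 9 and 3 (OT-I minus vehicle). Of all genes, 13.5% were higher and 14.9% lower in polyclonal chronic cells at this threshold. The shares were 7.40% and 10.9% in OT-I and 10.9% and 12.5% in vehicle chronic cells. They were 14.8% and 8.19% for NAC against vehicle chronic and 17.8% and 12.6% for NAC against vehicle acute cells. For the differences they were 13.1% and 16.8% (OT-I minus polyclonal), 12.9% and 14.1% (vehicle minus polyclonal) and 15.1% and 18.0% (OT-I minus vehicle). At a common median 6 were lower in OT-I chronic cells, 1 was higher and 48 lower with NAC against vehicle chronic cells, 1 was higher against vehicle acute cells, and 1 was higher for vehicle minus polyclonal; Mrpl3 (-0.0081) and Mrpl45 (-0.0251) reversed sign with NAC. The cause was not tested, beyond the shift of the median of all genes given above. With only the groups compared in the fit, counts were 25 and 9 in polyclonal, 13 and 10 in OT-I and 4 and 53 in vehicle cells. They were 14 and 36 for NAC against vehicle chronic cells, and 5 were higher for OT-I minus polyclonal. That last count was also 5 with voom and 5 without the 3 libraries with raised low genes. Without these 3 libraries, 30 were lower in OT-I cells. As a share of all RPKM the summed level differed by -19.7% (vehicle), 1.64% (NAC against vehicle chronic) and -18.4% (NAC against vehicle acute).

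Leaving out each replicate in turn gave 22 to 30 higher and 9 to 12 lower in polyclonal, 11 to 20 and 10 to 24 in OT-I and 2 to 4 and 37 to 40 in vehicle cells. For NAC it gave 7 to 10 and 26 to 31 against vehicle chronic, and 5 to 5 and 51 to 54 against vehicle acute cells. For the differences it gave 4 to 10 and 19 to 29 (OT-I minus polyclonal), 2 to 3 and 41 to 49 (vehicle minus polyclonal) and 30 to 41 and 5 to 10 (OT-I minus vehicle). No shares of all genes are given beside these refits, the replicate block, voom or the fits with only the groups compared.

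With the replicate block, counts were 29 and 12 in polyclonal, 16 and 16 in OT-I and 4 and 45 in vehicle cells, and 10 and 29 and 5 and 55 for NAC. OT-I and vehicle libraries shared only a number (r of -0.167 to 0.0767 between same-numbered libraries). Over all alternatives 1649 values of named genes kept direction and side of the threshold, 72 lost and 11 gained the call, and 2 reversed. Depth limits Mrps36 most, with as few as 17 reads in a library.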
